A study of Mus musculus with 2 samples.

Results

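The genes described here are the integrin α and β subunits, the laminin chains, and Nid1, Nid2, Hspg2 and Agrn, which encode other core proteins of the basement membrane. They were chosen by symbol and are 41 of the 21883 protein-coding genes with a position in the RefSeq table of assembly GRCm38.p6 (mm10). The 41 comprise 26 integrin subunit genes, 11 laminin genes, 2 nidogen genes and 2 heparan sulphate proteoglycan genes, and 1 integrin gene is not analysed here. A peak counted as belonging to a gene when its centre lay in the gene's span or within 50 kb of it, and a peak near several of the genes was counted once in sums. By this rule 104 unique peaks were found, 52 of the 14483 in the CD137 list and 52 of the 8002 in the PDGFRα list. The binding-protein genes Itgb1bp1, Itgb1bp2 and Itgb3bp, whose symbols share the integrin prefix but which encode no subunit, were left out, and together they had 1 CD137 peak and 0 PDGFRα peaks.

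Open chromatin was measured by ATAC-seq, in which a transposase cuts accessible DNA, in 2 populations of progenitor cells from the adipose tissue of C57BL/6 mice. One population was selected for CD137, the protein of Tnfrsf9 and a marker of beige progenitors, and the other for PDGFRα, labelled CD140+/PDGFRa+, a receptor of stromal progenitors. Both were isolated with magnetic beads from SAT or VAT, without a statement of which depot gave which cells, then exposed to an adipogenic cocktail and to dexamethasone, a glucocorticoid, at 1 µM. Each population is 1 library. Both groups received the drug, so nothing below measures its effect, and the labels do not state the number of animals. The labelled extraction step refers to the zona pellucida and to embryonic cells, which does not match adipose tissue. For each library the authors deposited the peaks they named unique, as positions with no height or read number. Depth is therefore unknown, intervals cover counting error only, and where a gene lacks unique peaks its chromatin can be equally open or equally closed in the populations.

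Integrins are receptors made of an α and a β subunit that tie the cell to the matrix outside it and signal through focal adhesions. Laminins are trimers of an α, a β and a γ chain that polymerise into the basement membrane, where nidogens and the proteoglycan perlecan link them to the collagen IV network. A mature adipocyte is wrapped in such a membrane, and preadipocytes change their integrins and lay down laminin as they differentiate.

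Peaks of the populations were equally many at these genes although the CD137 list was the longer one. The CD137 share of the 104 peaks was 50% (exact binomial 95% interval 40.0 to 60.0%), against 62.0% (61.2 to 62.7%) of the 16823 peaks in or within 50 kb of any protein-coding gene and 64.4% of all 22485 peaks. In the 7.49 Mb covered by the windows, CD137 peaks had a density of 6.94 per Mb (exact Poisson 95% interval 5.18 to 9.10) and PDGFRα peaks also had 6.94 per Mb. Over the windows of all protein-coding genes the densities were 6.18 per Mb for CD137 and 3.79 per Mb for PDGFRα. The PDGFRα density at these genes thus lay above that over all genes, while the CD137 interval included the value over all genes. Inside the gene spans the CD137 share was nearer to that of all genes: 30 CD137 and 23 PDGFRα peaks lay in a span. The share was 56.6% (42.3 to 70.2%) against 61.9% over all genes, and the interval included that value. Densities in the spans were 8.28 per Mb (5.58 to 11.8) for CD137 and 6.35 per Mb (4.02 to 9.52) for PDGFRα. Over the spans of all genes they were 6.43 and 3.96 per Mb, the latter just below the PDGFRα interval. No p-value is given, since each population is 1 library.

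**Figure D1:**
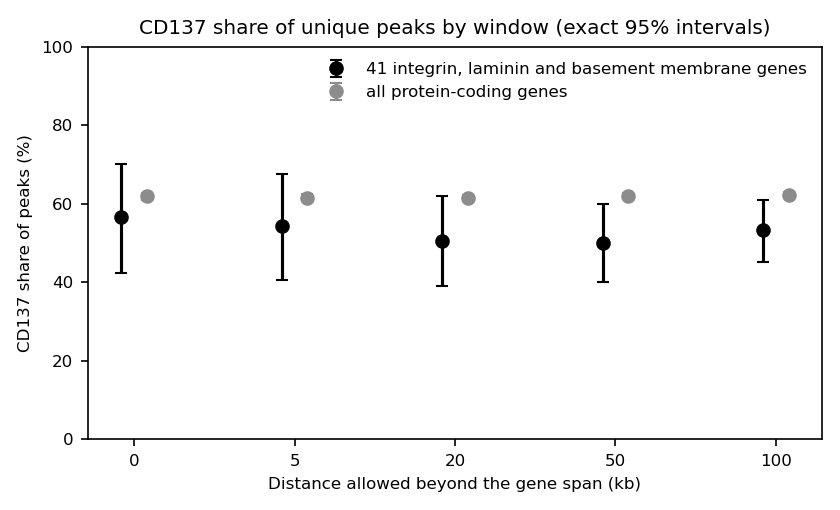
CD137 share of unique peaks (percent, y axis) against the distance allowed beyond the gene span (kb, x axis), for the 41 genes (black) and all protein-coding genes (grey), with exact 95% binomial intervals that cover counting error only. The share of the 41 genes lies below that of all genes at each distance, from 56.6% in the spans to 50% within 50 kb, and its interval leaves out the value of all genes at 50 and 100 kb.

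Most of the genes had a peak, and most are long. A CD137 peak was present at 26 of 41 genes (63.4%), where 49.5% of all protein-coding genes had one, and a PDGFRα peak at 23 (56.1%), where 40.4% had one. Peaks of CD137 only were found at 10 genes (24.4%, 24.7% of all genes), of PDGFRα only at 7 (17.1%, 15.6% of all genes), of both lists at 16 (39.0%, 24.8% of all genes) and of neither at 8 (19.5%, 34.9% of all genes). Their median span was 61.8 kb (10.7 to 636 kb), against 17.2 kb over all genes. When all genes were weighted to the same spread over 5 length classes, 61.4% had a CD137 peak, 49.5% a PDGFRα peak, 34.7% both and 23.8% neither. Beside these weighted values the share of the 41 genes was close for CD137 and somewhat higher for PDGFRα. Of the 41 genes, 18 (43.9%) had 3 or more peaks, where 20.5% of all genes had as many and 32.5% when weighted to the members' lengths. More PDGFRα than CD137 peaks were present at 14 genes (34.1%), where 20.6% of all genes showed this and 22.5% when weighted by length. More CD137 peaks were present at 15 (36.6%), where 34.1% of all genes showed this and 41.5% when weighted, and equal numbers at 4. The 8 genes without any unique peak were Itga4, Itgam, Itgb2l, Itgb4, Itgb7, Lama5, Lamc3 and Agrn.

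**Figure D2:**
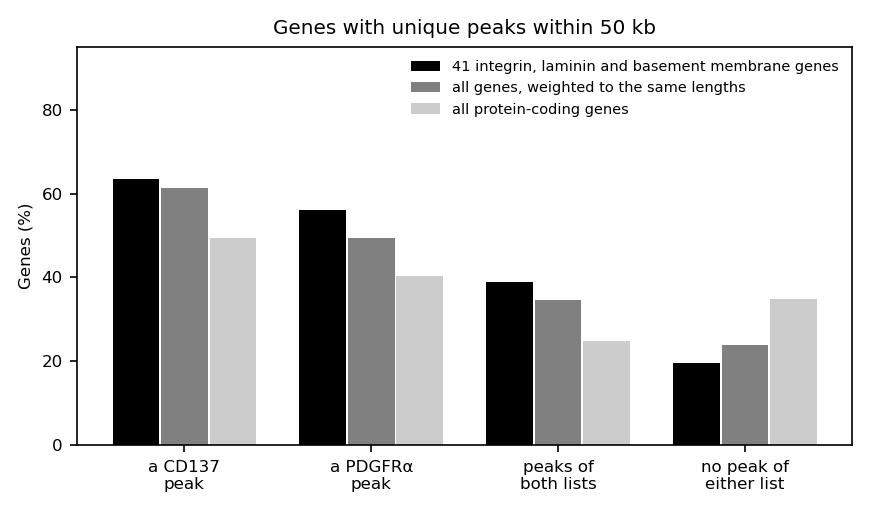
Percent of genes (y axis) with a CD137 peak, a PDGFRα peak, peaks of both lists or no peak within 50 kb, for the 41 genes (black), for all protein-coding genes weighted to the same length classes (dark grey) and for all protein-coding genes (light grey). Against the weighted values the 41 genes stand at 63.4% and 61.4% for CD137 and at 56.1% and 49.5% for PDGFRα.

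**Figure D3:**
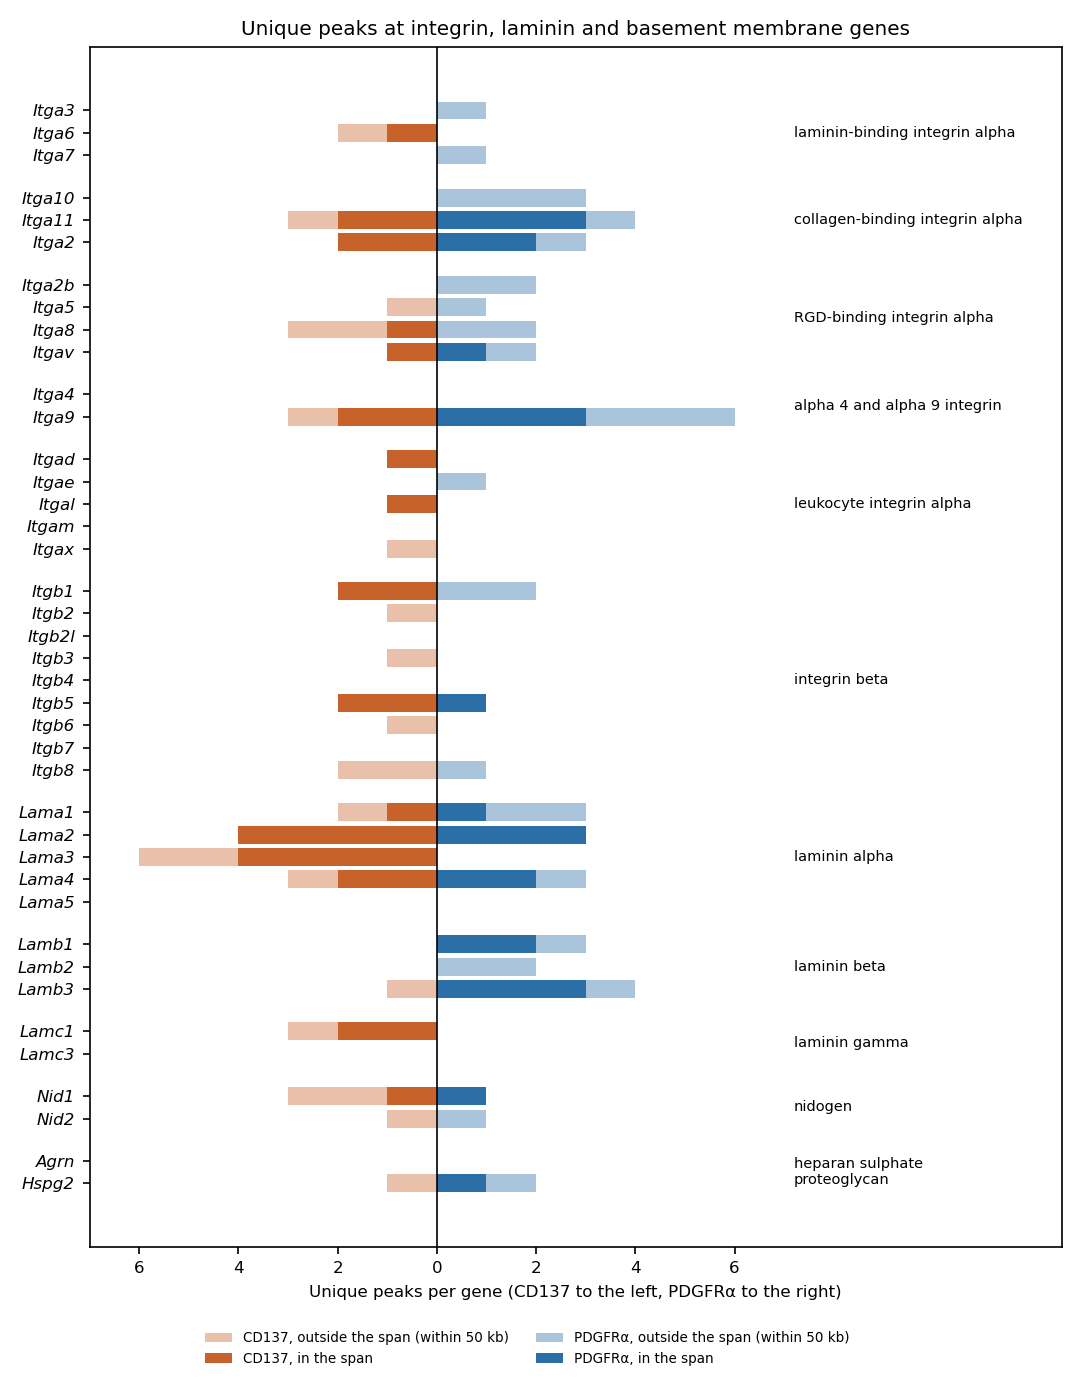
Number of unique peaks (x axis) at 40 of the 41 genes (y axis, grouped by role), CD137 to the left in orange and PDGFRα to the right in blue, with dark bars for peaks in the gene span and light bars for peaks outside it but within 50 kb. The most CD137 peaks are at Lama3 (6) and the most PDGFRα peaks at Itga9 (6).

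Few of the peaks lay over the end of a gene. An end of the span was covered by a CD137 peak at 3 genes (7.32%), among them Itga11 and Lama3, where 2.98% of all genes had such a peak, and by a PDGFRα peak at another 3 (7.32%), Itga5, Itga9 and Lama4, where 2.17% had one. The RefSeq promoter table (GRCm38.p6) matched 26 of the 41 genes, with 30 annotated starts, and 3 of those starts lay under a peak. That of Itga11 was under a CD137 peak, and that of Itga5 and 1 of the 2 of Lamb3 were under PDGFRα peaks. Counted by peak, 1 of 30 CD137 and 2 of 43 PDGFRα peaks at the matched genes covered a start of their gene. In the whole lists, 3.63% of CD137 and 4.02% of PDGFRα peaks covered any annotated start. The classes up5k and down5k in the deposited lists could not be read as upstream and downstream. Of such peaks within 5 kb of the end of a gene with a known strand, those at the low-coordinate end were classed up5k in 92.2% of 500 cases at genes on the plus strand and in 87% of 409 cases at genes on the minus strand, and those at the high-coordinate end in 34.6% of 456 and 28.2% of 528 cases. The class thus went with the coordinate more than with the strand, with many exceptions at the high end. The PDGFRα peak over the start of Itga5, a gene on the minus strand, was classed down5k.

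The 250 bases before these starts are shown because they are the promoters of these genes that a unique peak of one population covered, with each CpG, the dinucleotide that DNA methylation acts on, in capitals. They are read 5′ to 3′ along the gene, from RefSeq, at chr9:62677605-62677854 (plus strand) for Itga11, chr15:103366792-103367041 (minus strand) for Itga5 and chr1:193301744-193301993 (plus strand) for Lamb3.
Itga11: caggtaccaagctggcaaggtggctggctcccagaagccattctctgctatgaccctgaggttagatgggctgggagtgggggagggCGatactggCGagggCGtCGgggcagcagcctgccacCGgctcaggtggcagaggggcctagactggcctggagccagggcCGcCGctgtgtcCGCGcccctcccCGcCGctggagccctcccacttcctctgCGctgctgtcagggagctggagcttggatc
Itga5: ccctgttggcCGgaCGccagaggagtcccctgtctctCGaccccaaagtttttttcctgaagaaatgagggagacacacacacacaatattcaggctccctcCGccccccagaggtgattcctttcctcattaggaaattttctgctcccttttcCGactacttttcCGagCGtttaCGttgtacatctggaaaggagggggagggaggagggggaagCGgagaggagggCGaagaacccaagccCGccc
Lamb3: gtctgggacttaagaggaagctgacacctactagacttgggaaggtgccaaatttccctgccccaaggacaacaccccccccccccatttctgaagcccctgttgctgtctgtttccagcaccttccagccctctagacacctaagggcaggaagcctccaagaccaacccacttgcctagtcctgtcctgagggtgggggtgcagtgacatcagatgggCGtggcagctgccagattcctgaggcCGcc
The windows of Itga11 and Itga5 held 12 and 11 CpGs and that of Lamb3 held 2, beside a median of 10 over the 21262 windows of protein-coding genes. Their GC contents were 68.4% for Itga11, 55.6% for Itga5 and 58.8% for Lamb3, beside a median of 55.6%. On both strands, none held the TEAD motif GGAATG, which 11.7% of all windows hold, the AP-1 motif TGANTCA (6.13%), the glucocorticoid receptor hexamer AGAACA (13.7%) or the EBF motif CCCNNGGG (13.5%). The GC box GGGCGG, present in 42.6% of windows, occurred in that of Itga5 alone, on the opposite strand, beginning 149 and 6 bases before the start. A match or its lack describes these letters in this window only.

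Among the integrin α subunits, PDGFRα peaks were the more numerous within 50 kb, with 26 against 17 CD137 peaks. The CD137 share was 39.5% (25 to 55.6%). In the spans alone CD137 peaks were slightly the more numerous, and several of the PDGFRα peaks outside the spans lay in other genes. The collagen-binding subunits gave 10 of the 26 PDGFRα peaks and 5 of the 17 CD137 peaks. Itga11, the collagen receptor subunit of fibroblasts and mesenchymal cells (chromosome 9, 62677855 to 62783979), had 3 CD137 and 4 PDGFRα peaks. The CD137 peak of 1772 bp at 62677574 to 62679346 covered its start, whose sequence is given above, and a second CD137 peak lay in an intron at 62689588 to 62690684. The PDGFRα peaks within the gene lay farther in, at 62693614 to 62694999 (intron), 62731667 to 62733315 (exon) and 62748876 to 62750653 (intron). Before the gene, a CD137 peak at 62645412 to 62646703 and a PDGFRα peak at 62639572 to 62640980 were 31.8 and 37.6 kb away. At Itga11 each population thus had peaks both before and within the gene, with the start covered in the CD137 list.

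Itga2, a collagen receptor subunit of epithelial cells and platelets (chromosome 13, 114833081 to 114932100), had 2 CD137 and 3 PDGFRα peaks. In the gene, CD137 peaks at 114855460 to 114856469 (exon) and 114875866 to 114876888 (intron) enclosed PDGFRα peaks at 114859990 to 114860981 (intron) and 114867044 to 114868457 (exon). The third PDGFRα peak lay 32.4 kb before the gene and was classed intron, and Itga2 was not the nearest gene to it. Itga10, the collagen receptor subunit of cartilage (chromosome 3, 96645584 to 96664519), had its 3 peaks in the PDGFRα list, but all 3 lay past its end inside other genes. They were at 96678676 to 96680084 and 96684019 to 96684948 in Ankrd35 and at 96706491 to 96707359 in Nudt17.

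The RGD-binding subunits, receptors for fibronectin and vitronectin among other ligands, had 5 CD137 and 7 PDGFRα peaks. Each of the 4 genes had a PDGFRα peak, where 40.4% of all protein-coding genes had one, and 3 of them also had a CD137 peak, where 49.5% had one. Itga5, the α subunit of the main fibronectin receptor (chromosome 15, 103344286 to 103366791), had the widest peak of all 104, a PDGFRα peak of 4450 bp at 103365004 to 103369454 over its start. Its CD137 peak was 21.8 kb before the start, at 103387922 to 103389282, and Itga5 was not the nearest gene to it. Itgav, the vitronectin receptor subunit (chromosome 2, 83722303 to 83806917), had a PDGFRα peak of 2164 bp in an intron at 83727743 to 83729907, followed 3.51 kb on by a CD137 peak at 83733420 to 83734854, and a second PDGFRα peak 21.4 kb before the gene at 83700490 to 83701413.

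Itga8, a subunit found on smooth muscle and mesenchymal cells (chromosome 2, 12106632 to 12301985), had 3 CD137 and 2 PDGFRα peaks. The CD137 peaks lay in an intron at 12174541 to 12175635, 6.68 kb before the start at 12308143 to 12309190 and 14.1 kb past the end at 12091893 to 12093184, all nearer than the PDGFRα peaks at 40.7 and 47.1 kb (12065238 to 12066530 and 12348249 to 12349832). Itga2b, the platelet subunit (chromosome 11, 102453297 to 102469883), had 2 wide PDGFRα peaks, of 2970 bp at 102436024 to 102438994 and of 3677 bp at 102444613 to 102448290, and both lay inside the neighbouring gene Fam171a2. Of the RGD-binding genes only Itgav thus had a PDGFRα peak centred in its span.

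Itga9, whose product binds tenascin and other matrix ligands (chromosome 9, 118606709 to 118901003), had the most peaks of the 41 genes, 3 CD137 and 6 PDGFRα. A PDGFRα peak at 118605909 to 118607534 covered the first base of its span, on the plus strand, and another preceded the span by 11.5 kb at 118594466 to 118596049. The annotated start of Itga9, however, was 104 kb from the peak over the first base. The unique peak nearest to that start was the CD137 peak at 118728359 to 118729964, 16.7 kb away. Within the gene, PDGFRα peaks at 118629561 to 118631064 and 118830843 to 118831970 enclosed the CD137 peaks at 118728359 to 118729964 and 118774110 to 118774906, all in introns. The remaining peaks were a CD137 peak 17.3 kb before the gene (118588801 to 118590064) and PDGFRα peaks 7.38 and 48.8 kb past it (118907674 to 118909090 and 118948944 to 118950709, the latter in Ctdspl). Itga4, its closest relative, had no unique peak.

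The laminin-binding subunits had 2 peaks of each list, on different genes. Itga6, a laminin receptor subunit that rises as preadipocytes differentiate in culture (chromosome 2, 71786886 to 71858427), was found in the CD137 list alone, with 2 peaks. One lay in an exon at 71787035 to 71788064, beside the low-coordinate end of the span, and the other 11.8 kb outside that end at 71774410 to 71775740, although the deposited list gives it as an intron of the same gene. Itga3, an epithelial laminin receptor subunit, and Itga7, that of muscle, each had 1 PDGFRα peak and no CD137 peak, 29.1 and 2.37 kb from the gene, and the peak of Itga7 lay inside Mettl7b. Itga6 was thus the sole laminin-binding subunit gene with a peak in its span.

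Leukocyte subunits, which pair with β2 or β7 on blood cells, had 2 CD137 peaks and 1 PDGFRα peak. Itgal had a CD137 peak in an intron at 127308678 to 127309477 of chromosome 7, and Itgad had one at 128187429 to 128188223, which is also the peak of Itgax, 37.2 kb away. Itgae had a PDGFRα peak 2.41 kb from its low-coordinate end. All of these were narrow, from 794 to 1076 bp.

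The β subunits leaned towards CD137, with 9 CD137 and 4 PDGFRα peaks, a share of 69.2% (38.6 to 90.9%) whose interval included the 62.0% of all genes. Itgb1, the β subunit shared by the collagen, fibronectin and laminin receptors (chromosome 8, 128685654 to 128733579), had 2 CD137 peaks in its span, at 128704267 to 128705534 (exon) and 128724598 to 128725415 (intron). Its 2 PDGFRα peaks were intergenic and preceded the gene by 18.7 kb (128666273 to 128667544) and 37.7 kb (128647510 to 128648443). At this gene the lists were thus separated by place, with CD137 in the body and PDGFRα upstream.

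Itgb5, a vitronectin receptor subunit that pairs with αv (chromosome 16, 33829665 to 33949338), had all its peaks in introns, a PDGFRα peak at 33872518 to 33873975 and CD137 peaks at 33903299 to 33905141 and 33944218 to 33945513. Itgb8, which pairs with αv and takes part in the activation of latent TGF-β (chromosome 12, 119162803 to 119238276), had only intergenic peaks, CD137 peaks at 119149322 to 119150451 and 119248517 to 119249320 and a PDGFRα peak at 119271738 to 119273227. Itgb2, the leukocyte β subunit, Itgb3, that of platelets, and Itgb6, that of epithelia, had 1 CD137 peak each, at 20.6, 42.5 and 15.3 kb from the gene. None of the 9 β subunit genes had PDGFRα peaks only, where 15.6% of all protein-coding genes did. CD137 peaks only were present at 3 (33.3%), where 24.7% of all genes had them, and with 9 genes these counts are small.

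**Figure D4:**
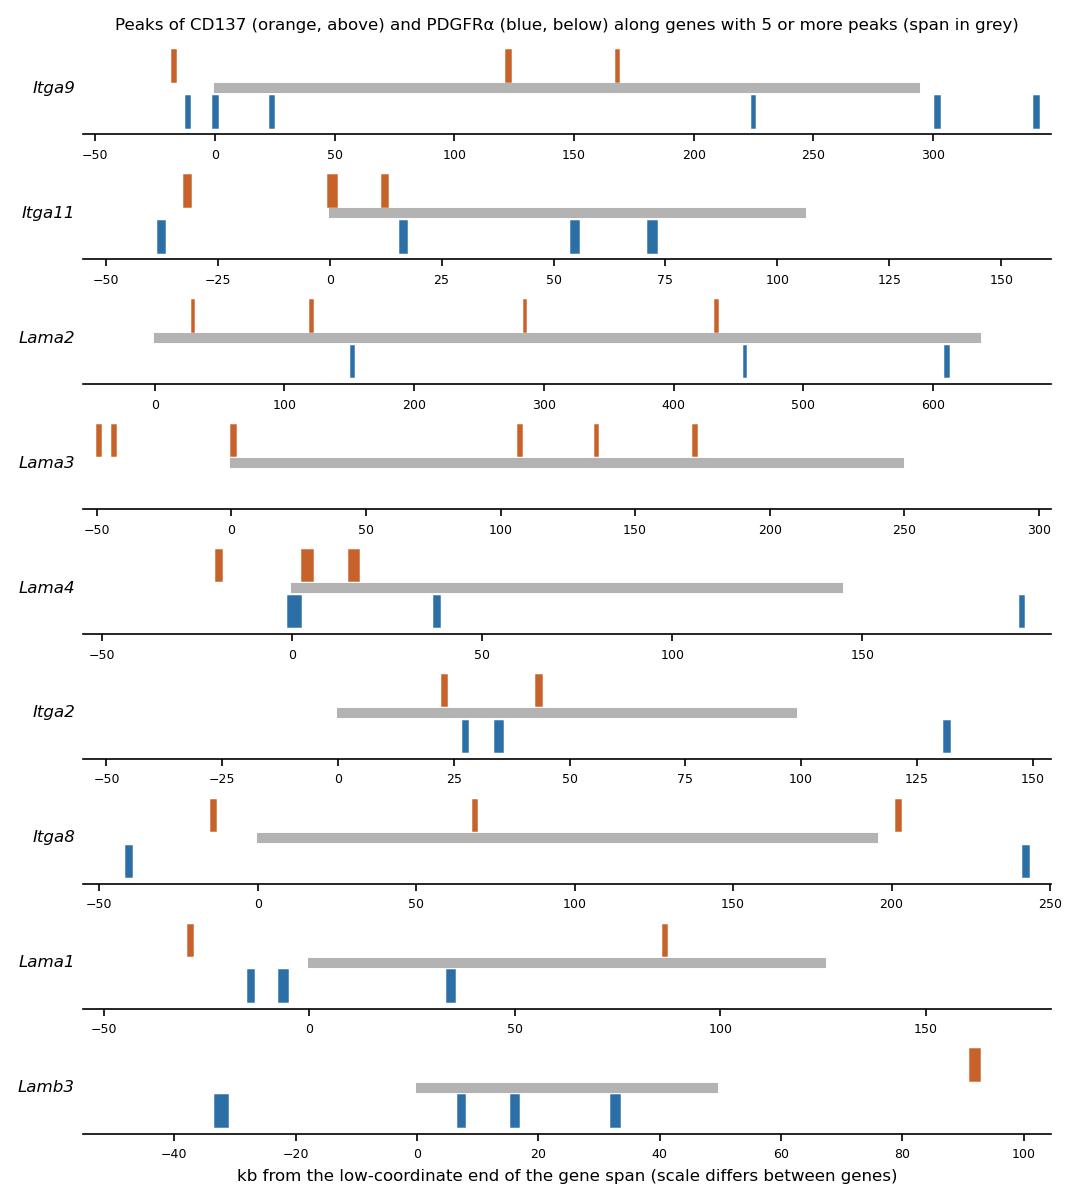
Position of the unique peaks (kb from the low-coordinate end of the gene, x axis, with a different scale for each gene) along the 9 genes with 5 or more peaks. Grey bars are the RefSeq spans, orange bars above are CD137 peaks and blue bars below are PDGFRα peaks. Lama3 has CD137 peaks only, and the 3 peaks within Lamb3 are all PDGFRα.

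The 11 laminin genes together had 21 CD137 and 18 PDGFRα peaks, a CD137 share of 53.8% (37.2 to 69.9%) whose interval included the 62.0% of all genes. The lists differed between single chains, which are described in turn, and several peaks share a gene.

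Lama3, the α chain of the epithelial laminin that anchors skin (chromosome 18, 12333417 to 12583013), had the most CD137 peaks, 6, and none of PDGFRα. A CD137 peak at 12333269 to 12334728 covered the low-coordinate end of its span, 3 lay farther in the span at 12440067 to 12441194 (exon), 12468544 to 12469429 (intron) and 12504988 to 12505952, and 2 lay 43.7 and 49.4 kb outside it in Ankrd29 (12289149 to 12290193 and 12283350 to 12284709). Lamb3, the β chain that joins Lama3 in that trimer (chromosome 1, 193294353 to 193343878), had 1 CD137 and 4 PDGFRα peaks. In its span there were only PDGFRα peaks, at 193301108 to 193302130 (exon), 193309827 to 193311029 and 193326263 to 193327722 (both intron). The first covered 1 of the 2 annotated starts of Lamb3, that at 193301994, which lies inside the span and whose sequence is given above. A further PDGFRα peak at 193261055 to 193263090 lay in Hsd11b1, the gene of the enzyme that regenerates active glucocorticoid, and the CD137 peak at 193385538 to 193387008 was 42.4 kb past the gene. Lama3 thus had unique peaks of CD137 only and Lamb3 mostly of PDGFRα.

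Lama4, the α chain of the basement membrane around adipocytes and vessels (chromosome 10, 38965515 to 39110188), had 3 peaks of each list and the closest pair within any of the 41 spans. A PDGFRα peak of 2994 bp at 38964409 to 38967403 covered the low-coordinate end of the span, and a CD137 peak of 2589 bp at 38967994 to 38970583 began 591 bp after it. A second CD137 peak of 2183 bp followed at 38980549 to 38982732 and a second PDGFRα peak at 39002808 to 39003989, both in introns. The others lay outside, a CD137 peak 19.4 kb away at 38945464 to 38946755 and a PDGFRα peak 47.2 kb away at 39156874 to 39157900 in Ccn6. Lama4 was therefore the gene at which wide unique peaks of both populations stood side by side near one end.

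Lama2, the α chain of muscle and nerve laminin, also made by mesenchymal cells (chromosome 10, 26981285 to 27617191), is the longest of the genes at 636 kb, and all its 4 CD137 and 3 PDGFRα peaks lay in its span. The PDGFRα peak of 2248 bp at 27590217 to 27592465 was the nearest to its start, 24.5 kb away on the minus strand, and the others were at 27132922 to 27134194 and 27435453 to 27436491. The CD137 peaks, at 27009695 to 27011051, 27101320 to 27102808, 27265644 to 27266364 and 27413197 to 27414776, were all 202 kb or more from the start. Lama1, the α chain of early embryonic basement membrane (chromosome 17, 67697127 to 67822645), had 2 CD137 and 3 PDGFRα peaks. Its PDGFRα peaks were in an intron at 67730547 to 67732287 and at 6.45 and 14.3 kb outside the low-coordinate end (67689661 to 67691684 and 67682176 to 67683533). Its CD137 peaks were in an intron at 67783079 to 67783854 and 29.1 kb outside at 67667519 to 67668450. At both genes the PDGFRα list had the peaks nearest to the end named.

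Lamb1, the widespread β chain (chromosome 12, 31265146 to 31329644), had its 3 peaks in the PDGFRα list, at 31294243 to 31295706 (intron), 31302666 to 31304319 (exon) and, 18.5 kb before the gene, 31245976 to 31247292. Lamc1, the γ chain of most laminins (chromosome 1, 153218922 to 153332786), had its 3 peaks in the CD137 list, at 153274979 to 153276260 (intron), 153304395 to 153305664 in the span, and 153354137 to 153355502, 22.0 kb outside. These chains occur together in most laminin trimers, and their unique peaks, 3 at each gene, were in opposite lists. Peaks of CD137 only were present at 24.7% of all protein-coding genes and peaks of PDGFRα only at 15.6%. Lamb2, the β chain of the synapse and the kidney filter (chromosome 9, 108479847 to 108490530), had 2 PDGFRα peaks, which preceded its start by 9.95 kb (108469257 to 108470539) and 48.0 kb (108431378 to 108432304), and for neither was it the nearest gene.

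Among the other basement membrane genes, Nid1, which links laminin to collagen IV (chromosome 13, 13437602 to 13512275), had 3 CD137 peaks and 1 PDGFRα peak. A CD137 peak at 13474586 to 13475930 and the PDGFRα peak at 13487341 to 13488982 were in introns, and CD137 peaks at 13414968 to 13415862 and 13538324 to 13539159 lay 22.2 and 26.5 kb outside. Its relative Nid2 had 1 peak of each list, 22.5 kb (CD137) and 6.51 kb (PDGFRα, in Rtraf) from the gene. Hspg2, which encodes the proteoglycan perlecan (chromosome 4, 137468751 to 137570630), had a PDGFRα peak of 1894 bp in an intron at 137473101 to 137474995, 4.30 kb from its start. Its other peaks were past its end in Ldlrad2, a CD137 peak at 137577245 to 137579075 and a PDGFRα peak at 137579437 to 137580617, with 362 bp between them. In the body of Hspg2 the only unique peak was thus of PDGFRα.

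Some peaks of opposite lists stood near each other. Of the 52 CD137 peaks, 7 (13.5%, exact interval 5.59 to 25.8%) had a PDGFRα peak of the same gene within 5 kb, where 6.15% of all 14483 CD137 peaks had a PDGFRα peak within that distance, a value inside the interval, and 8 (15.4%) within 10 kb, where 10.2% had one. The 7 were at Hspg2, Lama4, Itgav, Itga2 and Itga9, with 1 each, and at Itga11 with 2.

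The PDGFRα peaks at these genes included many wide ones. Of 52 PDGFRα peaks, 9 (17.3%, exact interval 8.23 to 30.3%) were 2000 bp or wider, where 5.52% of the whole list was, and their median width was 1410 bp against 1237 bp over the list. Of 52 CD137 peaks, 3 (5.77%) were that wide, where 4.94% of the list was, with a median of 1275 bp against 1221 bp. The 9 wide PDGFRα peaks were at Itga5, Itga2b (2), Lama4, Itga7, Lama2, Itgav, Lamb3 and Lama1, and those at Itga2b and Itga7 and that of Lamb3 lay in other genes. Of the wide CD137 peaks, 2 were at Lama4.

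By position, 30 of 52 CD137 peaks (57.7%, exact interval 43.2 to 71.3%) and 23 of 52 PDGFRα peaks (44.2%, 30.5 to 58.7%) lay in the span of one of the genes. Over all protein-coding genes 63.6% of CD137 and 63.9% of PDGFRα peaks within 50 kb lay in the span of any such gene. The shares above count only the spans of the genes described here, so they cannot be compared with these values. Of the peaks outside the spans of the genes described here, 13 of 29 PDGFRα peaks (44.8%) and 5 of 22 CD137 peaks (22.7%) lay in another protein-coding gene. Peaks in the integrin gene not analysed here are left out of these counts, and the share over all genes was not computed. With peaks kept only where the gene was the nearest, 43 CD137 and 36 PDGFRα peaks remained, a CD137 share of 54.4% (42.8 to 65.7%), whose interval includes the 62.0% over all genes.

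Genes that act with these proteins were taken as 3 lists. Focal adhesion genes, which link integrins to actin, carried 39 peaks of CD137 and 49 of PDGFRα, and 28 of the 31 genes had at least 1. The CD137 share was 44.3% (33.7 to 55.3%). Of these genes 5 had CD137 peaks only, 12 PDGFRα peaks only and 11 both (16.1%, 38.7% and 35.5%). Over all protein-coding genes 65.1% had at least 1 peak, 24.7% of CD137 only, 15.6% of PDGFRα only and 24.8% of both. Weighted to the lengths of the focal adhesion genes (median 47.9 kb), these shares of all genes were 74.1%, 26%, 14.4% and 33.8%, so the genes with PDGFRα peaks only were the class farthest from the weighted value. Tln2, a talin that activates integrins, had 6 CD137 and 2 PDGFRα peaks and the tensin gene Tns1 had 4 and 0, whereas Kank1, of a family that binds talin, had 0 and 4, and Lims1, the partner of integrin-linked kinase, had 1 and 4. Bcar1 and Actn1, with 0 and 3 each, had the same difference as Lims1.

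Other basement membrane genes carried 45 peaks of CD137 and 42 of PDGFRα, and 25 of the 26 genes had at least 1. The CD137 share was 51.7% (40.8 to 62.6%), and 3 genes had CD137 peaks only, 4 PDGFRα peaks only and 18 both (69.2%). These are long genes (median 120 kb), and all genes weighted to their lengths had a peak in 83.6%, CD137 peaks only in 26.4%, PDGFRα peaks only in 11.3% and both in 45.9%. Col4a1, a main collagen IV chain, had 1 CD137 and 5 PDGFRα peaks, Egflam, which encodes the dystroglycan ligand pikachurin, had 0 and 4, Col4a4 had 5 and 2, and the netrin gene Ntn4, whose product binds laminin, had 4 and 1. Col4a3 with 0 and 3 and Frem1 with 3 and 0 had differences of the same size as the last pair. Other laminin receptors and the dystroglycan complex carried 41 and 34 peaks, with at least 1 at 22 of the 26 genes and a CD137 share of 54.7% (42.7 to 66.2%). Of these genes 3 had CD137 peaks only, 4 PDGFRα peaks only and 15 both (57.7%), where all genes weighted to their lengths (median 46.4 kb) had a peak in 72.8%, CD137 peaks only in 25.7%, PDGFRα peaks only in 14.5% and both in 32.6%. The hyaluronan receptor gene Cd44 had 5 and 1, the dystrophin gene Dmd had 0 and 4, its relative Utrn had 5 and 2, and Cd47 had 3 and 0. Musk, with 0 and 3, had a difference as large as that of Cd47. A CD137 share below the 62.0% of all genes was thus found in each list, with an interval that left out 62.0% for the focal adhesion genes.

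**Figure D5:**
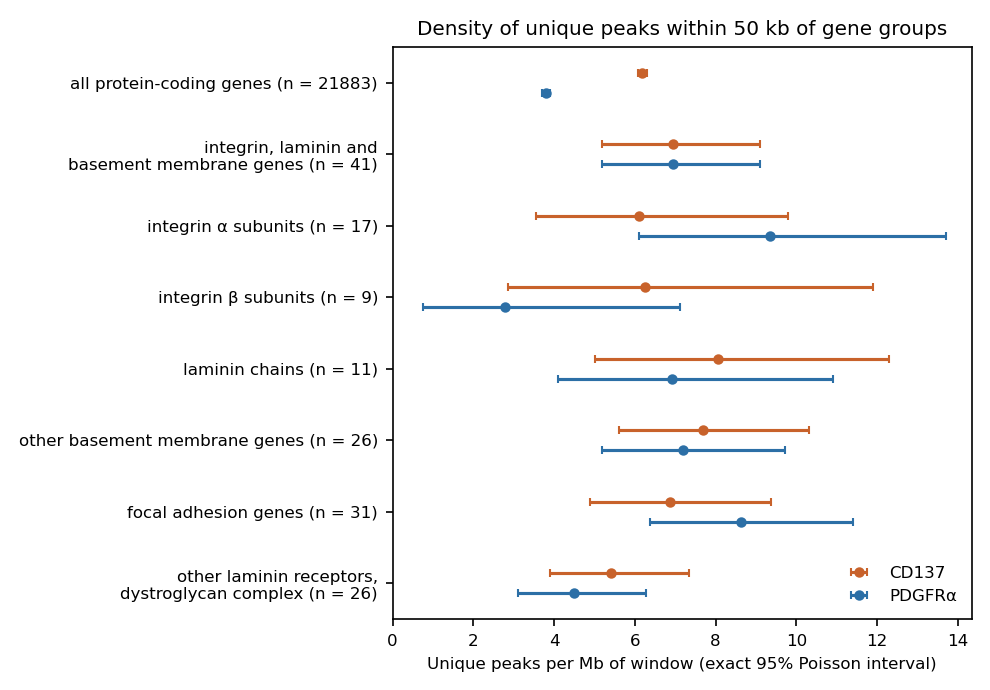
Unique peaks per Mb of window (x axis) within 50 kb of gene groups (y axis, with the number of genes), CD137 in orange and PDGFRα in blue, with exact 95% Poisson intervals that cover counting error only. Both densities are 6.94 per Mb at the 41 genes, beside 6.18 and 3.79 per Mb over all protein-coding genes, and 8.07 and 6.92 per Mb at the laminin chains.

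Markers of cell types were counted in the same way, since endothelial and smooth muscle cells also make basement membrane. Endothelial markers carried 6 peaks of CD137 and 8 of PDGFRα, spread over 5 of 6 genes, smooth muscle markers 1 and 4 at 3 of 4 genes, and immune markers 4 and 8 at 6 of 6 genes. Adipocyte markers had 10 and 3 at 6 of 6 genes, stromal progenitor markers 8 and 5 at 6 of 7, beige progenitor markers 9 and 2 at 3 of 4 and early embryo markers 10 and 2 at 5 of 6. These counts stand beside 65.1% of all protein-coding genes with a peak and a CD137 share of 62.0%, and they cover few genes. Single genes carry much of some sums, since Ebf2 had 7 of the 9 CD137 peaks of the beige markers, and Pparg and Esrrb had 5 of the 10 of the adipocyte and the embryo markers. The markers without a unique peak were Pecam1 (endothelial), Cnn1 (smooth muscle), Pdgfrb (stromal), Tbx1 (beige) and Pou5f1 (embryo). Lists of unique peaks cannot show whether a labelled cell type has its markers open, and the part of such cells in the counts above was not tested.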

How the data were processed

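ATAC-seq peaks of 2 libraries, 1 per group, were used as the authors deposited them. Per the file headers, the columns give the chromosome, start and end of each peak with an Ensembl ID and a class of place. The submitters' processing notes name build mm10 and CASAVA 1.8 with no role. The peak caller and its threshold, the aligner, any transposase shift, the meaning of unique and the base from which starts count were not given in the sources used here. Genes, strands and promoter sequences came from RefSeq tables of GRCm38.p6. The build was checked by position. RefSeq genes held the centres of 95.4% (CD137) and 95.2% (PDGFRα) of the peaks classed intron, but of 41.1% and 41.4% once these were moved by 3 Mb.

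The members and gene lists were chosen with earlier results of these data known. Positions are given for genes with 3 or more peaks, with 2 or more peaks of 1 list only, or with a peak in the span, and for each of the other lists up to 4 genes with the largest difference in peak number are named, with ties ordered by total and then by symbol. The positions at Itga5 and the genes tied with the last of those named were added after their values were seen. Of the 41 genes, 1 is counted in sums and not reported by itself. In the third list 1 of 27 names was not matched. Values of all genes weighted to 5 length classes were chosen after the data were seen. Shares have exact binomial and densities exact Poisson 95% intervals. Other windows, assignments, list lengths and widths were tried. The assignment of peaks to genes was tested on simulated data. Python 3.11.15 was used with scipy 1.17.1, numpy 2.4.6, matplotlib 3.10.9 and pandas 2.3.3.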

Additional observations from a re-analysis of the deposited data

How the results depend on the processing

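No paired analysis was possible because each group is 1 library, and for the same reason no library could be left out. The CD137 share stayed between 46.3% and 56.6% in all settings but 1, with other windows, overlap in place of the centre, the nearest gene, deposited IDs, the wider 50% of each list, without Itga9, and for integrins (46.4%) and the other genes (54.2%) apart, a split chosen after the data were seen. The exception was 37.3% (27 to 48.7%) with as many of the widest CD137 peaks as the PDGFRα list holds. That setting shortens 1 list, and in it all protein-coding genes gave 48.3%, a value inside the interval. The share of all genes lay outside the interval within 50 and 100 kb, with overlap, with the wider 50% and for integrins. It lay inside in the spans, within 5 and 20 kb, and with the nearest gene. The interval also held 62.0% with deposited IDs (39.7 to 67%) and for the other genes (39.2 to 68.6%). Without Itga9 it was 41.1 to 62% and reached that value. Narrower windows left fewer genes with peaks. In the span only, 3 genes had PDGFRα peaks only (7.32%, 6.8% of all genes), 9 had both (22%, 6.41% of all genes) and 21 neither (51.2%, 75.9% of all genes). Within 5 kb, 9 had both (22%, 7.53% of all genes) and 18 neither (43.9%, 69.8% of all genes). Within 100 kb, 2 had PDGFRα peaks only and 3 neither, both smaller shares than over all genes. These shares of all genes were not weighted by length. With the nearest gene only, 16 had neither, with no value over all genes beside it. By deposited class 53.8% of CD137 and 55.8% of PDGFRα peaks were in an intron or exon, against 57.7% and 44.2% in the span of one of the genes, and such a class may refer to another gene. Depth is unknown and was not equalised.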
